A study of Mus musculus with 6 samples.

Results

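Potassium channel genes were examined in N2A cells, a mouse neuroblastoma line used to study neuronal differentiation, after knockdown of the POU transcription factor gene Pou3f3. The members were the array rows with a single gene symbol starting with Kcn, without the antisense transcript Kcnq1ot1, and for each symbol the row with the highest mean over the arrays was used. This gave 92 genes (95 rows) of the 19938 genes with a single symbol. There were 3 control arrays, from cells transiently transfected with a non-targeting vector, and 3 knockdown arrays, from cells transiently transfected with a Pou3f3 shRNA construct, at 1.5 μg of vector in both. RNA was taken 2.5 days after transfection. The hairpin was driven by a U6 promoter, which hairpin was used is not stated, and no selection of transfected cells is given in the sources used here, so each array is an average over the cells of a well. In such bulk samples fewer expressing cells and less RNA per cell cannot be told apart. The paper describes the samples as biological replicates, and all are of a single cell line, so that p-values reflect only how far such cultures vary.

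Potassium channels let potassium leave the cell, which sets the resting potential and ends the action potential. Voltage-gated channels open on depolarisation and are built from pore subunits, from silent subunits that work only in mixed channels, and from auxiliary subunits that alter gating or transport to the membrane. Calcium-activated channels couple firing to intracellular calcium, inward rectifiers and tandem-pore leak channels hold the membrane near rest, and several of these families are known to be switched during neuronal differentiation.

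All values are log2 array values and all differences are knockdown minus control. Of 11 measured markers of sympathoadrenal and neuronal cells 10 lay above the 95th percentile (7.41) of the rows of olfactory receptor genes, which served as a reference for genes that are silent in most tissues. Nefm, a neurofilament gene, was the exception at 6.24 in controls. Of the 11 markers 2 fell, namely Dbh, the enzyme that makes noradrenaline (-1.17; limma adjusted p = 0.00471), and the nicotinic receptor gene Chrna3 (-0.44; adjusted p = 0.0192). By the same test, explained with the channel genes, 0.684% of all rows fell and 1.3% rose. Chga (-0.35; adjusted p = 0.0628) and Gata3 (-0.33; adjusted p = 0.0484) also had separate groups but lay below the fold cut-off explained with the channel genes. Elavl4 differed in the other direction (0.29; limma adjusted p = 0.0634), also with separate groups and below that cut-off. By sign, 6 of the 11 markers lay below 0 and 5 above, with a median of -0.06. The mean over the 11 markers was 11.63 to 11.72 in control arrays and 11.45 to 11.52 in knockdown arrays, and the part of these shifts in the channel results was not tested. The 21 measured markers of other cell types had control levels of 6.22 to 8.98, and 14 of them lay above the reference. These were all measured markers of muscle (4) and of oligodendrocytes and Schwann cells (3), 3 of 4 of fibroblasts, 2 of 3 of endothelium, 1 of 4 of astrocytes and 1 of 3 of leukocytes. Des, a muscle intermediate filament gene, rose (0.39; adjusted p = 0.0797) and none of the 21 fell. Pou3f3 itself gave values of 8.37, 8.30 and 8.47 in controls and 8.20, 8.09 and 8.35 after knockdown. Its groups overlapped, and the difference of -0.16 (95% confidence interval -0.35 to 0.02) did not pass the test (limma adjusted p = 0.303; exact permutation p = 0.2, where 0.1 is the smallest possible). Between arrays of the same number it was lower in all 3 pairs (-0.17, -0.21 and -0.12), as were 29% of all rows. With this number as a block its limma adjusted p was 0.088, with the difference still below the fold cut-off. In that fit 10.7% of all rows were lower at an adjusted p under 0.1. Rows near its level (mean 8.37) had a median difference of -0.06 and a 10th percentile of -0.21. The paper reports reduced Pou3f3 by qRT-PCR, a measurement that is not part of these arrays.

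Of the 92 potassium channel genes 3 changed, namely Kcnn3 and Kcnip3, which fell, and Kcnab1, which rose. A change required a limma adjusted p under 0.1 over all rows with a single symbol and a fold of at least 1.3, which is 0.38 on the log2 scale. The 3 genes are 3.26% of the members, and 1.99% of all rows passed the same test, or 1.3% higher and 0.684% lower. Without the fold cut-off 4 members passed (4.35%, against 4.45% of all rows), and 15 had an unadjusted p under 0.05 (16.3%, against 19.9%). Kcnn3, which encodes a small-conductance calcium-activated channel that contributes to the after-hyperpolarisation of many neurons, measured 10.86, 10.83 and 10.83 in controls and 10.11, 10.25 and 10.18 after knockdown, in replicate order. Every knockdown array lay well below every control array. The mean fell by 0.66 on the log2 scale (95% confidence interval -0.80 to -0.51; adjusted p = 0.00451), from 10.84 ± 0.02 to 10.18 ± 0.07 (SD, n = 3), so that the level decreased by 36.6%. Kcnip3 encodes a calcium-binding protein that attaches to A-type channels of the Kcnd family and is also known as a transcriptional repressor. It was 11.02, 11.27 and 11.22 in controls and 10.61, 10.80 and 10.82 in knockdown cells. The groups did not overlap, and Kcnip3 fell by 0.42 (95% confidence interval -0.62 to -0.22; adjusted p = 0.0539), so that its level decreased by 25.4%. Kcnab1 encodes a beta subunit that speeds the inactivation of Kcna channels. It was 10.74, 10.46 and 10.71 in controls and 11.12, 10.98 and 10.99 in knockdown cells, again without overlap. It rose by 0.39 (95% confidence interval 0.19 to 0.59; adjusted p = 0.0639), or by 31.2%, just past the fold cut-off. Kcnn3 passed on leaving out any single array, whereas Kcnab1 passed only on leaving out control replicate 1, and Kcnip3 only without control replicate 1 or without knockdown replicate 3. The variance filter of the study's methods, taken over all 35556 rows, kept 17778 rows and left 28 of the 92 genes to be tested. On these rows none of the 3 genes passed (adjusted p = 0.168 for Kcnn3, 0.309 for Kcnip3 and 0.327 for Kcnab1), and 12 rows passed in all. The paper reports many more changed genes for this knockdown, and the cause of this gap was not tested. Taken within rows with a single symbol, the same filter kept 10894 rows, of which 542 passed. There all 3 genes passed (limma adjusted p = 0.000161 for Kcnn3, 0.0242 for Kcnip3 and 0.0399 for Kcnab1).

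**Figure D1:**
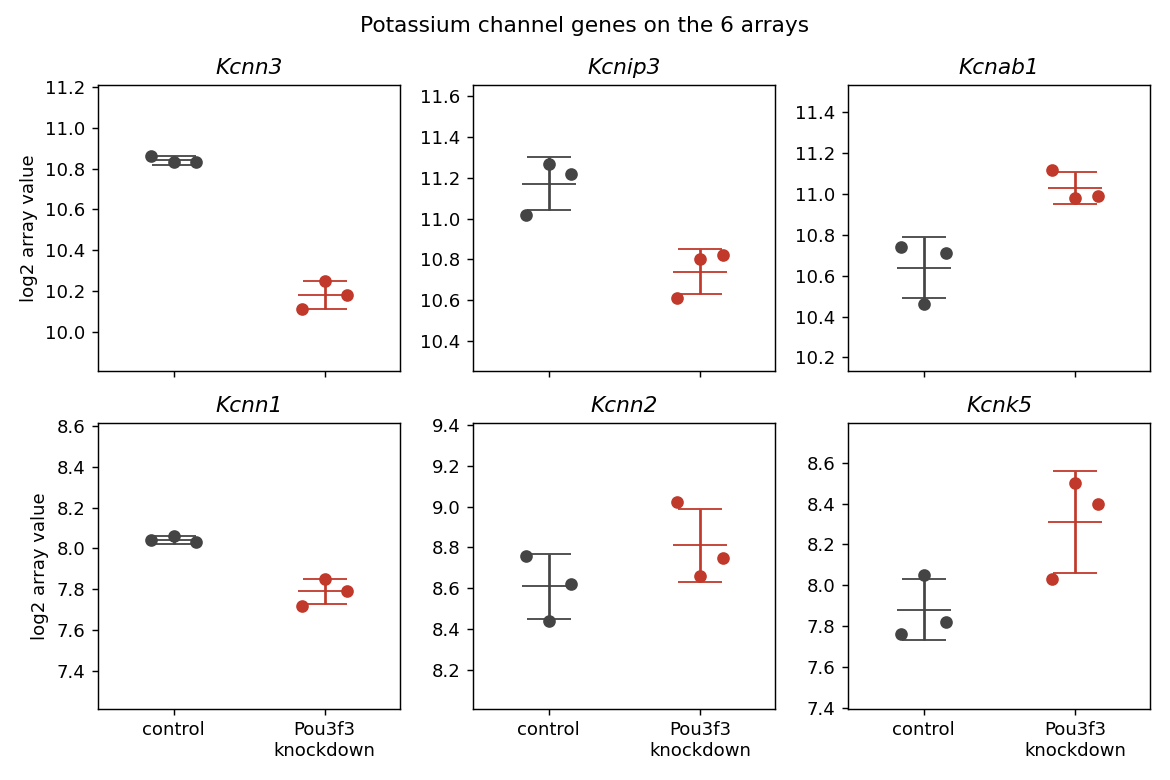
Log2 array values (vertical axes, each spanning the same range) of the 3 genes that changed, of Kcnn1 and Kcnn2, and of Kcnk5, in control (grey) and Pou3f3 knockdown (red) cells; points are single arrays and bars are means ± SD (n = 3). The groups are apart for Kcnn3, Kcnip3, Kcnab1 and Kcnn1 and overlap for Kcnn2 and Kcnk5.

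The 250 bases before the annotated start of these genes are shown because a POU factor was depleted, and because they differ in composition. They are from RefSeq (GRCm38.p6), 5′ to 3′, with each TAAT on either strand, the core bound by many homeodomains, in capitals. Where a gene has several annotated starts the outermost is given. Kcnn3 lies at chr3:89519914-89520163 (plus strand), Kcnip3 at chr2:127522095-127522344 (minus strand), Kcnab1 at chr3:64948962-64949211 (plus strand) and Kcnk5, a gene described with the leak channels, at chr14:20181783-20182032 (minus strand).
Kcnn3: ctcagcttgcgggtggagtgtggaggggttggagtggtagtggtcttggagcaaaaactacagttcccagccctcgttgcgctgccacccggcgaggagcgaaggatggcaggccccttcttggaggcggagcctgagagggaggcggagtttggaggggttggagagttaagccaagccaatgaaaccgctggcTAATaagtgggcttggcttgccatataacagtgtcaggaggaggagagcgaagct
Kcnip3: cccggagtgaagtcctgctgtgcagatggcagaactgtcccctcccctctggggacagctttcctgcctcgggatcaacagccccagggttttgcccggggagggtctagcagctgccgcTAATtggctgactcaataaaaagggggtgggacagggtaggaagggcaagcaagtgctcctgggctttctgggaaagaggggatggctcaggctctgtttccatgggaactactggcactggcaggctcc
Kcnab1: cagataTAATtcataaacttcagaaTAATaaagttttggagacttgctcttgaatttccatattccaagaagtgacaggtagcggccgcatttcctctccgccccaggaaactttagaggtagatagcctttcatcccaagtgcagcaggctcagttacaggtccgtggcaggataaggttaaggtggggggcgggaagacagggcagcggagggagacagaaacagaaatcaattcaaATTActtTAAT
Kcnk5: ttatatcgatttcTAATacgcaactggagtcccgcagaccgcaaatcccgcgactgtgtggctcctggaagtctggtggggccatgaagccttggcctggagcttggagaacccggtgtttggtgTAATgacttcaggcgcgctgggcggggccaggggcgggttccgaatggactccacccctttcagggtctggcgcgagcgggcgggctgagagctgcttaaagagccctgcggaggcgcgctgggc

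Kcnab1, the gene that rose, had the lowest GC content of these windows (45.2%) and 4 matches to TAAT. Kcnn3 and Kcnip3 had 58.8% and 60.0% GC and 1 match each, and Kcnk5 had 62.8% GC and 2 matches. A TAAT stood in 31 of the 70 member promoters found in the table (44.3%), against 55.4% of 27025 promoters of the same length. The POU octamer, ATGCAAAT on either strand, was in none of the windows shown. Among the member promoters it was found in that of Kcnab2 alone (1.43%), against 1.62% of all promoters. The median GC content was 58.8% for member promoters and 52.0% for all promoters. These matches describe letters in the windows and not bound sites.

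Of the small-conductance and intermediate-conductance calcium-activated genes, Kcnn1 to Kcnn4, only Kcnn3 passed the test. Kcnn1 was 8.04, 8.06 and 8.03 in controls and 7.72, 7.85 and 7.79 in knockdown cells, with no overlap. Its difference of -0.25 (95% confidence interval -0.40 to -0.11) had an adjusted p of 0.0859 but lay below the fold cut-off. Kcnn2, named after its values were seen, differed in the other direction, by 0.20 (95% confidence interval -0.04 to 0.45; adjusted p = 0.328), with values of 8.76, 8.44 and 8.62 in controls and 9.02, 8.66 and 8.75 in knockdown cells. The groups overlapped, although each knockdown array lay above the control array of the same number. Kcnn4, the channel of activated lymphocytes and red cells, also named afterwards, differed by -0.11 (adjusted p = 0.358). Whether Kcnn2 and Kcnn3 differed from each other in their response was not tested.

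The remaining channels that open on calcium or sodium showed smaller differences. Kcnmb2, an inactivating beta subunit of the large-conductance channel, was 9.12 ± 0.09 in controls and 9.06 ± 0.04 in knockdown cells (SD, n = 3). Kcnma1, the pore gene of that channel, was at 14.11 ± 0.05 in controls on its brightest row and differed by -0.09 (adjusted p = 0.459). That row may not measure Kcnma1. Row numbers mostly follow genome order, and for 94 of the 95 rows most of the 6 nearest named rows belonged to genes of the same chromosome. The exception was this Kcnma1 row, which sits between Fanca and Dbndd1, on another chromosome. None of its 4 listed transcripts is a RefSeq transcript of Kcnma1, whereas 17 of the 20 listed for its other row are. The other row was at 8.94 in controls and differed by -0.08 (adjusted p = 0.490), so the direction was shared but the level was not. Over the 12 genes of this class 8 lay below 0 (66.7%, against 57.5% of all rows), with Kcnn3 as the only change. The class median was -0.08 (-0.05 without control replicate 2 or knockdown replicate 2).

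Auxiliary subunits of voltage-gated channels included both of the other genes that changed, in opposite directions, and the rest of their families differed little. Of 12 genes 1 rose, 1 fell and 10 did not pass, with a median of -0.07 (-0.04 without control replicate 3 and -0.12 without knockdown replicate 3). Kcnab2, a further beta subunit of Kcna channels, was 10.94 ± 0.16 in controls and 10.88 ± 0.12 in knockdown cells (adjusted p = 0.730), and Kcnab3 differed by 0.04. The Kcnip relatives of Kcnip3 differed by -0.08 (Kcnip2), -0.04 (Kcnip1) and 0.04 (Kcnip4), and of these only Kcnip2 lay above the olfactory receptor reference. Kcnip1 and Kcnip4 were at levels where absence and low expression cannot be told apart. The 5 Kcne genes, small single-pass subunits, all lay below the reference. Kcne4, an inhibitor of several voltage-gated channels, had the largest difference among them with separate groups, from 7.21 ± 0.08 to 7.01 ± 0.08 (-0.20; adjusted p = 0.184).

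Pore subunits of voltage-gated channels had no member that passed the test, and 22 of 25 lay below 0, with a median of -0.10. Of all rows 57.5% lay below 0, and 71.1% to 74.3% of those at mean levels of 9 or less. These shares are also the background for the counts of the other classes. Kcnq3, a subunit of the M-current that restrains repetitive firing, was 7.82, 7.92 and 7.96 in controls and 7.58, 7.60 and 7.76 in knockdown cells. The groups were apart, and the difference of -0.25 (95% confidence interval -0.42 to -0.08) missed the threshold at adjusted p = 0.133. Kcna10, a cyclic-nucleotide-sensitive channel, differed by -0.21 (adjusted p = 0.139) and Kcnh3, of the ether-a-go-go-like channels, by -0.17 (adjusted p = 0.243), both without overlap between groups. The genes at the highest control levels did not pass. Kcnh2, the channel of cardiac repolarisation, was 11.43 ± 0.13 in controls and 11.32 ± 0.07 in knockdown cells, with a difference of -0.11 (95% confidence interval -0.30 to 0.07) that was -0.19 without control replicate 1. Kcnq5, of the M-current, went from 9.95 ± 0.02 to 9.90 ± 0.04 and Kcnh4 from 9.65 ± 0.13 to 9.60 ± 0.07. The Kcnd genes, whose channels Kcnip3 joins, differed by -0.16 (Kcnd1; adjusted p = 0.221), -0.12 (Kcnd2) and 0.03 (Kcnd3), and Kcnd1 was the only one above the olfactory receptor reference. Among the 8 Kcna genes, whose channels Kcnab1 joins, differences ran from -0.21 to 0.10. Kcna5, a delayed rectifier of the atrium, was the gene with the upper value and, with Kcnab1, one of only 2 members whose knockdown arrays all lay above the controls (adjusted p = 0.431). At 6.81 in controls Kcna5 lay below the olfactory receptor reference.

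The silent subunits, which join Kcnb channels and change their gating, lay below 0 in 9 of 10 cases, with a median of -0.13 and no change. The median was -0.06 without knockdown replicate 2 and after cyclic loess. Kcns2 was 6.48, 6.55 and 6.61 in controls and 6.38, 6.26 and 6.33 in knockdown cells, without overlap (-0.23; adjusted p = 0.132), at a level below the olfactory receptor reference. The brightest rows were those of Kcng1 (8.94 ± 0.07 to 8.82 ± 0.16), Kcng2 (8.76 ± 0.02 to 8.60 ± 0.11) and Kcns3, which was at 7.81 in both groups and moved to either side of 0 with the scaling of the arrays.

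Of 14 tandem-pore leak channels 12 lay below 0, with a median of -0.13, but the largest positive difference among all members was in this class. Kcnk5, an alkaline-activated leak channel linked to cell volume regulation, was 7.76, 8.05 and 7.82 in controls and 8.03, 8.50 and 8.40 in knockdown cells. The groups overlapped by a narrow margin, and the difference of 0.44 (95% confidence interval 0.15 to 0.72) did not pass (adjusted p = 0.120). Between arrays of the same number it differed by 0.27, 0.45 and 0.58, and Kcnk5 passed once this number was fitted as a block (limma adjusted p = 0.00594). It was named for this reason, after its values were seen. With the block 4 members passed, Kcnk5 in addition to the other 3, or 4.35% of members against 2.5% of all rows (1.74% higher and 0.757% lower). Kcnk9, an acid-sensitive leak channel of neurons, differed by -0.21 without overlap between groups (adjusted p = 0.163). At 7.28 in controls Kcnk9 lay below the olfactory receptor reference. Its relative Kcnk3 was at 10.29 ± 0.14 and 10.22 ± 0.10, and Kcnk15 and Kcnk12 differed by -0.13 and -0.12 (adjusted p = 0.362 and 0.360).

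Inward rectifiers were the class with the lowest upper limit of control levels, and none of their 15 genes changed. Control levels reached at most 8.13, 6 genes lay above the olfactory receptor reference, and differences ran from -0.16 to 0.08 with a median of -0.09. Kcnj9, a G-protein-gated subunit, differed by -0.09 without overlap (adjusted p = 0.462). The pore subunits of ATP-sensitive channels, Kcnj11 and Kcnj8, differed by -0.04 each, with 95% confidence intervals of -0.19 to 0.10 and -0.20 to 0.12. The 4 remaining symbols were the regulator gene Kcnrg and 3 antisense transcripts. Kcnd3os differed by -0.13, Kcnmb4os1 by -0.18 with separate groups (adjusted p = 0.189) and Kcnmb4os2 by -0.11.

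**Figure D2:**
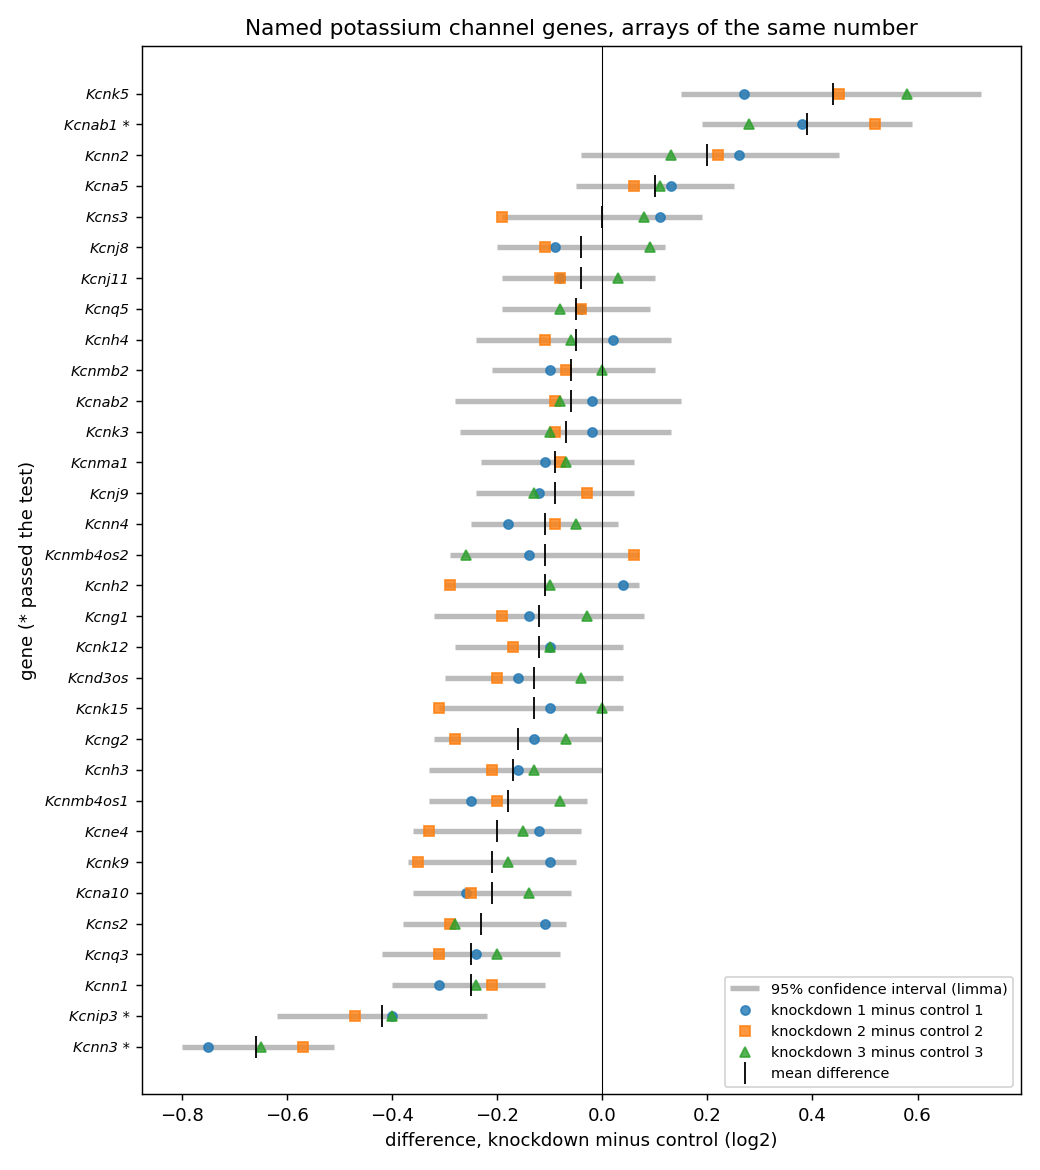
Difference between knockdown and control (log2, horizontal axis) of the named potassium channel genes; symbols are differences between arrays of the same replicate number, ticks are mean differences, grey bars are limma 95% confidence intervals and asterisks mark genes that passed the test. Kcnn3 and Kcnip3 lie lowest, at -0.66 and -0.42, and Kcnk5 and Kcnab1 lie highest, at 0.44 and 0.39.

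By level in controls, 53 of the 92 genes lay above the olfactory receptor reference of 7.41, set from 1035 rows with a median of 5.62. The count was 85 when the 75th percentile (6.35) was used and 10 with the 95th percentile of the keratin-associated protein rows (9.30, from 44 rows), so it depends strongly on the reference. A row's brightness also depends on its probes, and levels of different genes are not ranked as transcript abundance. Above the reference lay 14 of 25 voltage-gated pore genes, 6 of 10 silent subunits, 5 of 12 auxiliary subunits, 8 of 12 calcium- or sodium-activated genes, 6 of 15 inward rectifiers and 11 of 14 leak channels. The 3 genes that changed were at 10.64 to 11.17 in controls, among the 12 members with a mean level above 9.

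**Figure D3:**
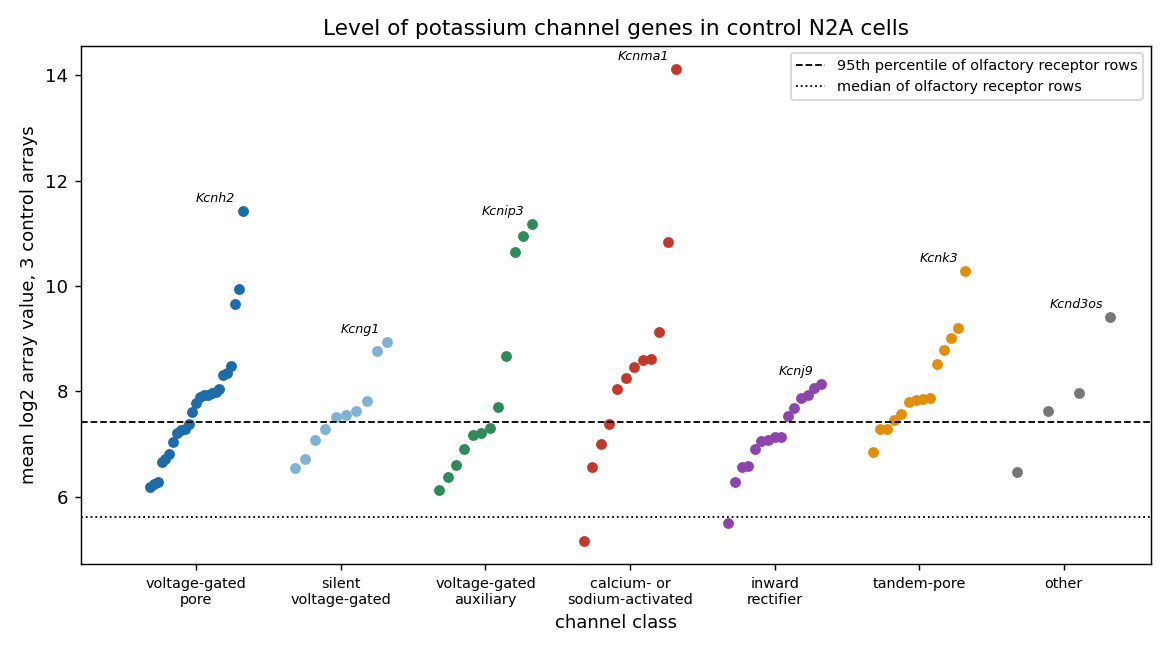
Mean log2 array value in the 3 control arrays (vertical axis) of the 92 potassium channel genes by channel class, each point a gene, with the top gene of each class named; tandem-pore denotes the Kcnk leak channels. The dashed line is the 95th percentile (7.41) and the dotted line the median (5.62) of olfactory receptor rows, and the bright Kcnma1 row at 14.11 is the one that sits among genes of another chromosome.

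Most potassium channel genes lay slightly below 0 without passing the test. In total 77 of 92 (83.7%) had a negative difference, against 57.5% of all rows, and the median was -0.09 against -0.03. Control and knockdown arrays did not overlap for 28 members (30.4%, against 26% of all rows). Of these 26 were lower (28.3%, against 15.1%) and 2 higher (2.17%, against 10.9%). Rows at low levels as a whole lay below 0 on these arrays, and 80 of the 92 genes had mean levels of 9 or less. The part of this shift in the differences of the family was not tested. Among members at or below the reference 82.1% were negative with a median of -0.09, where all rows at such levels gave 74.3% and -0.06. Between the reference and 9 the members gave 82.9% and -0.11, and all rows 71.1% and -0.08. Above 9 the 12 members gave 11 negative differences and a median of -0.08, and all rows 39.1% and 0.04. With the other row of Kcnma1, whose mean is under 9, these were 10 of 11 and -0.07. The largest departure from rows of similar level was thus in the smallest of these bins. After cyclic loess, which removes level-dependent shifts between arrays, 65 members were negative (70.7%, against 50.2% of all rows) and the median was -0.04, while above 9 there were 11 of 12, against 47% of all rows. These shares describe the family, and no test of the list was made.

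**Figure D4:**
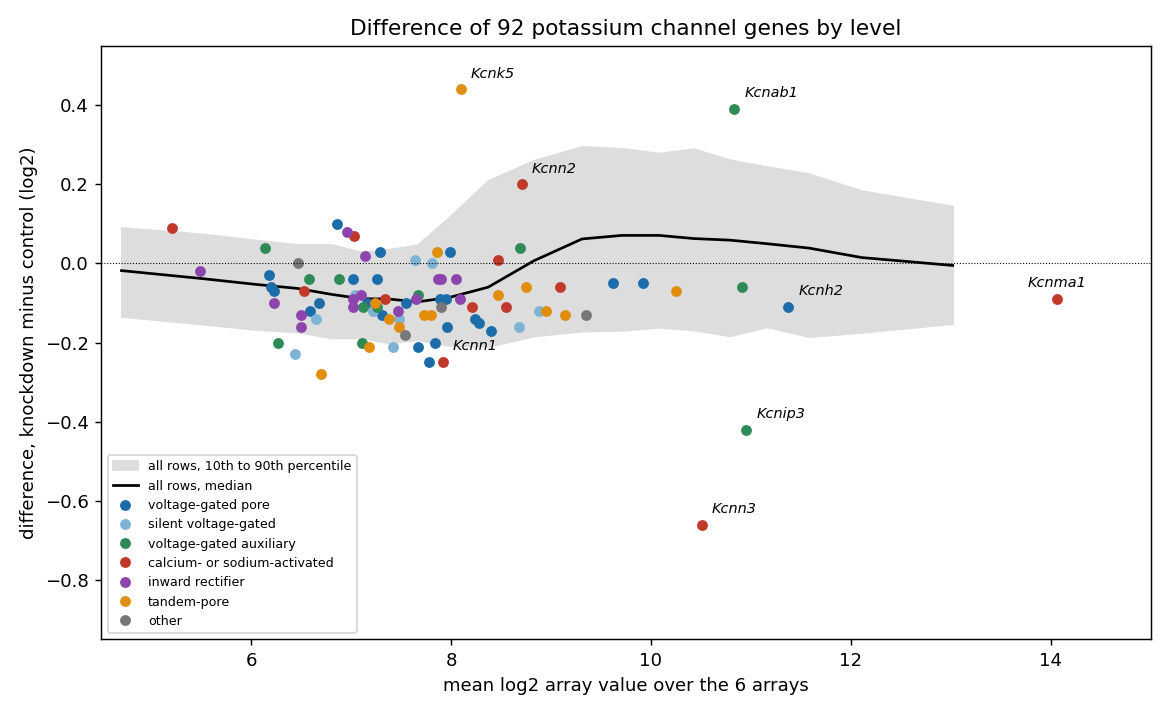
Difference between knockdown and control (log2, vertical axis) against the mean log2 value over the 6 arrays (horizontal axis) for the 92 potassium channel genes, coloured by class; the black line and grey band are the median and the 10th to 90th percentiles of all rows with a single symbol in 20 level classes. Most members lie between 6 and 9 and 75 lie inside the band, with 11 below it and 6 above it; Kcnn3 and Kcnip3 lie farthest below and Kcnk5 and Kcnab1 farthest above.

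Between arrays of the same replicate number the median difference of the members was -0.10, -0.13 and -0.04 in pairs 1 to 3, with 73, 70 and 60 of the 92 genes lower in the knockdown array. All 3 pairs were lower for 43 members (46.7%, against 29% of all rows) and higher for 5 (5.43%, against 23.8%). With the replicate block and no fold cut-off, 13 members were lower at an adjusted p under 0.1 (14.1%, against 10.7% of all rows) and 3 were higher (3.26%, against 12.3%).

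Genes that work with potassium channels but do not carry the Kcn name were described from a list of 42, of which 36 were measured. None rose and 2 of 36 fell, where 0.684% of all rows were called lower, and their median was -0.09. Lgi1, a secreted protein known to act on Kcna channels of the axon, was 12.43, 12.28 and 12.31 in controls and 11.94, 11.63 and 11.72 in knockdown cells. It fell by 0.57 (95% confidence interval -0.78 to -0.37; adjusted p = 0.0200), and the list was drawn up when this fall was already known. Atp1b1, the beta subunit of the sodium and potassium pump, was 12.02, 11.84 and 11.80 in controls and 11.54, 11.39 and 11.35 in knockdown cells, without overlap, and fell by 0.46 (95% confidence interval -0.65 to -0.27; adjusted p = 0.0342). On leaving out control replicate 2 or knockdown replicate 2 only 1 of these 2 genes passed. The next genes were chosen after their values were seen. The ankyrin gene Ank3, which anchors channels at the axon initial segment, and Lrrc55, an auxiliary subunit of the large-conductance channel, differed by -0.29 and -0.27 with adjusted p-values of 0.0983 and 0.0847, below the fold cut-off. Of the hyperpolarisation-activated channels Hcn2 differed by 0.37 (adjusted p = 0.113) and Hcn4 by -0.26 (adjusted p = 0.153), each with separate groups.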

How the data were processed

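The deposited values are log2 gene-level values, which the authors obtained from Affymetrix Mouse Gene ST array scans by RMA background correction, quantile normalisation and summary of probes with oligo and limma. Versions and the genome build are not given in the sources used here. Quantile normalisation hides a change shared by most transcripts, no detection call was used, and precision is limited by there being 3 arrays per group. Rows were named from the platform's gene table. Of 35556 rows 21789 had a single symbol, and they were fitted without a filter by lmFit and eBayes in limma 3.58.1 (R 4.3.3), two-sided, with Benjamini-Hochberg adjustment. Thresholds followed the study's methods (adjusted p under 0.1, 1.3-fold). Its variance filter was an alternative, since it leaves most members untested. Arrays of the same number were treated as pairs, and a fit with the replicate number as a block was made. The labels give the numbers but do not say that equal numbers share a culture or day. Correlations of deviations from group means were 0.64, 0.31 and 0.29 for equal numbers, and those for unequal numbers are not given. The script was tested on simulated data. Members, lists, tests and references were chosen with earlier results of these data known. Named genes were those that changed, the 10 largest rises and falls with separate groups, the 3 brightest of each class, partners that changed, and genes said to have been named afterwards.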

Additional observations from a re-analysis of the deposited data

How the results depend on the processing

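Kcnn3 kept its direction and passed in all alternatives but the variance filter of the study's methods taken over all rows, with differences of -0.71 to -0.61. Under that filter 0 members passed (0 higher, 0 lower) and 0 partners. Members called higher numbered 2 with the variance filter among rows with a single symbol and 2 with the replicate block, which changed no other call than that of Kcnk5. That variance filter kept 39 members, and 542 of its 10894 rows passed in either direction. Leaving out 1 array gave 1 to 3 members (0 to 1 higher, 1 to 2 lower) and 1 to 2 partners. Leaving out a pair in the blocked fit, chosen after seeing the data, gave 3 to 5 members (1 to 2 higher, 2 to 4 lower), the 5 without pair 3, where Kcnj1 and Kcnk18 passed and Kcnk5 did not. Shares over all rows are not given for the fits with arrays left out. Without a fold cut-off 4 of 36 partners passed, against 4.45% of all rows. After cyclic loess Kcnab1 was at 0.34 (adjusted p = 0.107) and Kcnk5 passed at 0.49 (adjusted p = 0.0958), and the class medians were -0.03 for voltage-gated pore genes, -0.01 for inward rectifiers and -0.06 for leak channels, where the loess curve itself removes a shift by level. On leaving out 1 array the median was -0.17 to -0.09 for leak channels and -0.19 to -0.06 for silent subunits. The olfactory receptor count of 53 became 85 or 10 with the other references. Using the lower row of Kcnma1, also added afterwards, changed no count of members that passed and no direction of a median. It did change the count of members with a mean level above 9. Directions turned only for uncalled differences near 0. Kcns3 was 0.00 with median centring, 0.06 after loess, 0.01 to 0.07 on leaving out control replicate 2 or knockdown replicate 1 or 2, -0.07 to 0.07 over all single arrays left out, and 0.09 in the blocked fit without pair 2. Kcnj8 was 0.02 and Kcnj11 0.01 after loess, Kcnj8 was 0.01 without knockdown replicate 2, and Kcnab2 was 0.00 without knockdown replicate 1 and -0.15 without control replicate 1. The cause of the other changes was not tested.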
